A study of Mus musculus with 16 samples.

Results

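The 10 genes described here encode 8 matrix metalloproteases (Mmp12, Mmp9, Mmp2, Mmp13, Mmp14, Mmp3, Mmp10 and Mmp19) and 2 of their tissue inhibitors (Timp1 and Timp3). They were taken by symbol from the array's annotation, with 1 probe set per gene, and all 10 of 10 were found among 19938 measured genes. Each is described across the 8 groups of a mouse study of crystalline silica (CS) in lungs with and without a tumor allele. Total lung RNA was hybridised to 16 whole-transcript arrays, 1 array per sample. All mice were C57BL/6, aged 10 to 12 weeks, and were instilled through the trachea with CS or with phosphate-buffered saline (PBS) as control.

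The day 2 groups carried no tumor allele and were BLT1-/- lungs with CS, BLT1-/- lungs with PBS, BLT1+/+ lungs with CS and BLT1+/+ lungs with PBS. The day 60 groups had the same 4 combinations on the KRasLA1 allele, a latent oncogenic allele that gives rise to lung tumors after spontaneous recombination, and are called BLT1-/-KRasLA1 and BLT1+/+KRasLA1. BLT1 is the high-affinity receptor for leukotriene B4, a lipid that attracts neutrophils, and BLT1-/- mice lack it in all cells. Each of the 4 CS groups held 3 lungs and each of the 4 PBS groups was a single array of RNA pooled from 3 mice. Day and KRasLA1 go together and cannot be told apart. The labels call the CS lungs of a group biological replicates, and do not number the animals.

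Matrix metalloproteases are zinc enzymes that cut collagens, elastin and other matrix proteins, and also shed or trim cytokines and receptors. They are made as inactive proenzymes, are switched on by other proteases, and are held in check by the tissue inhibitors of metalloproteases, which sit in the active site. In the lung, Mmp12 is the elastase of macrophages, Mmp9 is stored in neutrophil granules, and Mmp2 and Mmp14 come largely from mesenchymal cells. RNA level says nothing of proenzyme activation or of how much enzyme is bound by inhibitor.

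Of the 10 genes, 4 lie in a run of 10 neighbouring metalloprotease genes on chromosome 9 (Mmp13, Mmp12, Mmp3 and Mmp10). Their promoters are classic carriers of a site for AP-1, the Jun and Fos transcription factors, so the sequence upstream of these 4 genes is shown with that of Timp1, the inhibitor with the largest silica response. Each line gives the 120 bases before the annotated transcript start on the plus strand, from RefSeq on GRCm38.p6, with the match to the AP-1 letters TGANTCA in capitals. Mmp12 has 2 annotated starts, and both are shown, the upstream one first.
Mmp13, chr9:7272394-7272513: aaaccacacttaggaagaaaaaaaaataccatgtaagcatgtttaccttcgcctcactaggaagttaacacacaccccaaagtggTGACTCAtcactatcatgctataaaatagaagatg
Mmp12, upstream start, chr9:7344277-7344396: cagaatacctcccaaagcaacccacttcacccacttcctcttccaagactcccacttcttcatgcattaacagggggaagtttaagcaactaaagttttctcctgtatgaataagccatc
Mmp12, downstream start, chr9:7347254-7347373: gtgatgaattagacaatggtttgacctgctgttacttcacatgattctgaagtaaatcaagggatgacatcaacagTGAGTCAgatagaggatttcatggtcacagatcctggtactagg
Mmp3, chr9:7445702-7445821: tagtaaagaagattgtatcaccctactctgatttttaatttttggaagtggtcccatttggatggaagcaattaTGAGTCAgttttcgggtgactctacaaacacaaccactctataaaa
Mmp10, chr9:7502222-7502341: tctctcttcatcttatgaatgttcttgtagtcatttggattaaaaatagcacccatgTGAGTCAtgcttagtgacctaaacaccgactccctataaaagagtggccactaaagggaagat
Timp1, chrX:20870046-20870165: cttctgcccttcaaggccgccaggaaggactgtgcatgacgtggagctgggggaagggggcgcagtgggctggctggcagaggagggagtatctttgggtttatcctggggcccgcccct

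The match began 44 bases before the downstream start in Mmp12, 35 in Mmp13, 46 in Mmp3 and 63 in Mmp10. Promoter sequence was at hand for 7 of the 10 genes as 8 windows, 1 per annotated start. TGANTCA, searched on both strands over 250 upstream bases, was found in 4 of the 8 windows, those of Mmp13, Mmp3 and Mmp10 and the downstream one of Mmp12. It was not found in the upstream window of Mmp12 or in the windows of Timp1, Mmp14 and Timp3. Of all 32851 promoter windows of that length, 6.75% held it. The TATA letters TATAAA were found in 3 of the 8 windows (Mmp13, Mmp3 and Mmp10), against 12.4% of all windows. The ETS letters AGGAAG were in 6 of the 8, against 29.5% of all windows, and the 2 windows without them were those of Mmp10 and of the downstream start of Mmp12. Both were searched on both strands, and no motif of the 3 contains another. A match is a description of the letters in the window.

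Values are log2 levels, and array medians lay between 8.25 and 8.34. Levels of different genes come from different probes and are not compared. Of the 16 arrays, 3 stood apart by sex-linked genes. The Y-chromosomal gene Eif2s3y reached 10.09 in replicate 2 of BLT1+/+KRasLA1 CS, 9.04 in the BLT1-/-KRasLA1 PBS pool and 9.68 in the BLT1+/+KRasLA1 PBS pool, against 4.27 to 4.74 on the other 13 arrays. Xist was at 6.61 in that CS lung, at 12.16 and 12.32 in the 2 pools of day 60, and at 12.75 to 13.06 on the other 13 arrays. Both PBS pools of day 60 are thus among the 3 arrays, so no pool of that day was free of this signal. The CS lung with the signal is a single lung that received silica, and its Xist level was far below those of the 2 pools. In the 7 genes called at day 60, that lung was above both pools. For Mmp9 it was at 9.79, against 8.82 and 8.98 in the pools, and for Mmp2 at 11.81, against 10.80 and 11.28. The part of this signal in the silica responses of day 60 was not tested. The silica responses of day 60 are given below also without each pool in turn, in a fit to the remaining arrays of that day, which leaves the other such pool in place. Of the 7 responses called at day 60, 7 passed without BLT1+/+KRasLA1 CS replicate 2. That fit has the signal in both pools of day 60 and in none of its CS lungs, so it cannot tell signal from silica. In whole lung, fewer cells of a type and less RNA per cell cannot be told apart.

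Silica raised Timp1 and Mmp12 at both days, Timp1 more at day 2 and Mmp12 more at day 60. In the KRasLA1 lungs of day 60, both gelatinases, Mmp9 and Mmp2, were also higher with CS than in the 2 PBS pools. The same held for Mmp13, Mmp14 and Mmp19. For Mmp9 and Mmp2 the pools differed between the days, at -1.38 and -0.58 for day 60 minus day 2. In CS lungs these differences were -0.15 and 0.18. The calls of these genes at day 60 were sensitive to leaving out a pool, as given for each below. Of the 10 genes, 4 passed the threshold at day 2 in the mean silica response over the BLT1 genotypes (Timp1, Mmp12, Mmp19 and Mmp3), all higher in CS lungs. Of all genes, 12.4% passed in either direction, 8.03% higher and 4.37% lower. At day 60, 7 of the 10 passed, all higher, against 4.02% of all genes in either direction, 3.35% higher and 0.677% lower. The 10 genes were chosen with earlier results of these data known, so an excess over these shares can come from the choice. The median response of the 10 genes was 0.40 at day 2 and 0.88 at day 60, against -0.02 and -0.03 over all genes. The 6 CS lungs and the 2 pools did not overlap in 7 of the 10 genes at day 2 and in 9 at day 60, against 22.2% and 17.4% of all genes. The threshold is an adjusted p of 0.05 from limma, over all 19938 genes.

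**Figure D1:**
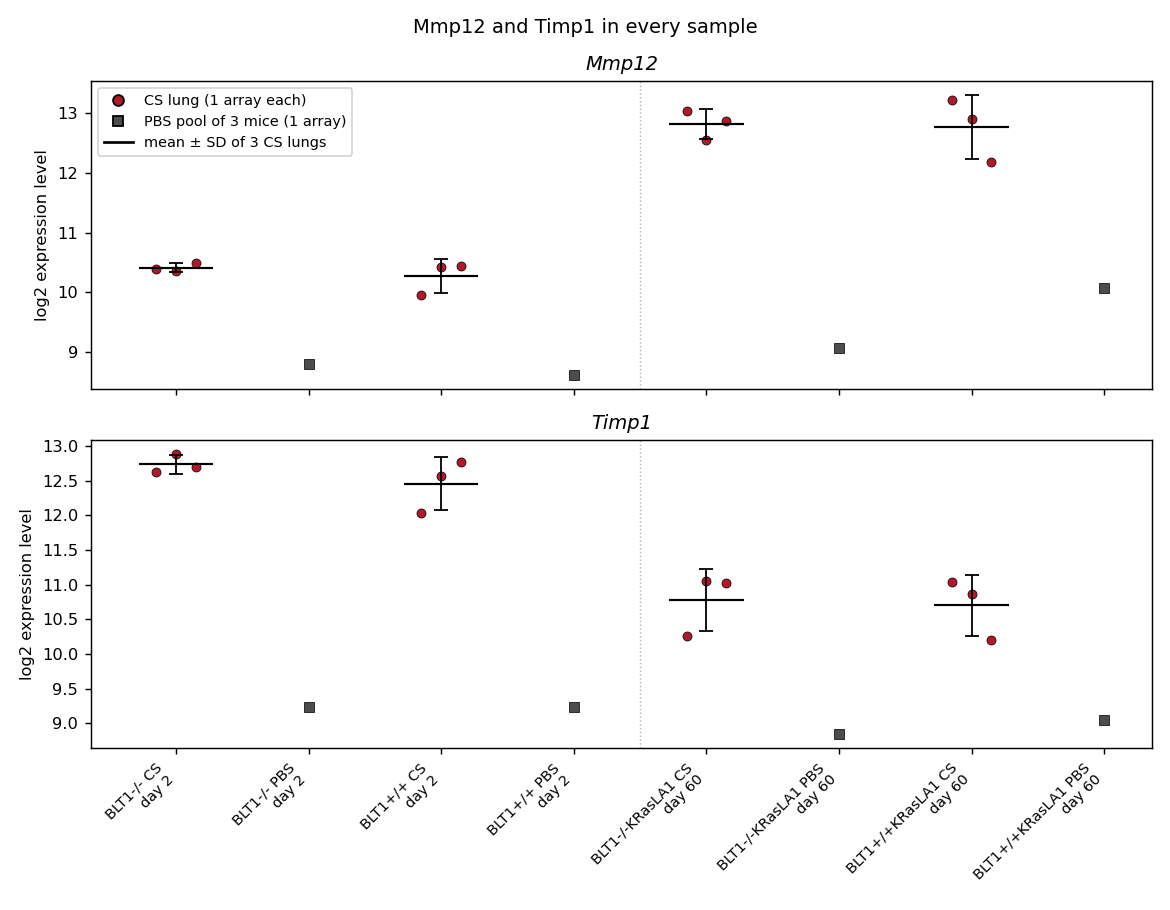
Log2 levels of Mmp12 (top) and Timp1 (bottom) in every sample, by group. Points are CS lungs, squares are PBS pools, and bars are the mean ± SD of 3 CS lungs. In Mmp12 the 6 CS lungs of day 60 lie between 12.18 and 13.23, above every other array, while in Timp1 the 6 CS lungs of day 2 lie highest, between 12.03 and 12.89.

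Mmp12 (probe set 10583056, chromosome 9), the macrophage elastase, spanned 4.22 log2 units between its highest and lowest group mean, the widest span of the 10 genes. At day 2 it was at 10.39, 10.35 and 10.49 in BLT1-/- CS lungs, against 8.79 in the BLT1-/- PBS pool. In BLT1+/+ lungs of day 2 it was at 9.95, 10.43 and 10.44 with CS, against 8.60 with PBS. All 6 CS lungs of day 2 were above both pools, and the mean response was 1.65 ± 0.21 (SE), or 3.13-fold (adjusted p = 0.000522).

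At day 60 Mmp12 was at 13.05, 12.56 and 12.87 in BLT1-/-KRasLA1 CS lungs, against 9.05 in their PBS pool. In BLT1+/+KRasLA1 lungs it was at 13.23, 12.91 and 12.18 with CS, against 10.07 with PBS. All 6 CS lungs were again above both pools, and the mean response was 3.24 ± 0.21, or 9.43-fold (adjusted p = 3.86e-06). Without the BLT1-/-KRasLA1 pool the response was 2.70 (adjusted p = 0.0213), and without the BLT1+/+KRasLA1 pool it was 3.77 (adjusted p = 0.00372). Without BLT1+/+KRasLA1 CS replicate 2 it was 3.20 (adjusted p = 9.54e-06).

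In order of level, the BLT1-/-KRasLA1 and BLT1+/+KRasLA1 CS lungs of day 60 came first for Mmp12, at 12.83 ± 0.25 and 12.77 ± 0.54 (SD, n = 3 each), and overlapped. Next came the BLT1-/- and BLT1+/+ CS lungs of day 2, at 10.41 ± 0.07 and 10.27 ± 0.28, which also overlapped. The BLT1+/+KRasLA1 PBS pool, at 10.07, lay within the range of the BLT1+/+ CS lungs of day 2. The other 3 pools were at 9.05 or below.

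Timp1 (probe set 10598976, X chromosome), a broad metalloprotease inhibitor and a gene of the acute response, had the largest silica response of the 10 genes at day 2. It was at 12.62, 12.89 and 12.70 in BLT1-/- CS lungs, against 9.24 in the BLT1-/- PBS pool. In BLT1+/+ lungs it was at 12.03, 12.57 and 12.77 with CS, against 9.23 with PBS. Every CS lung was above both pools by more than 2 log2 units, and the mean response was 3.36 ± 0.24, or 10.3-fold (adjusted p = 1.01e-05).

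At day 60 Timp1 was at 10.26, 11.05 and 11.02 in BLT1-/-KRasLA1 CS lungs, against 8.84 in their PBS pool. In BLT1+/+KRasLA1 lungs it was at 11.03, 10.87 and 10.20 with CS, against 9.05 with PBS. CS lungs and pools did not overlap, and the mean response was 1.79 ± 0.24, or 3.46-fold (adjusted p = 0.00106). The call was lost without the BLT1-/-KRasLA1 pool (1.65, adjusted p = 0.116) and without the BLT1+/+KRasLA1 pool (1.93, adjusted p = 0.0512). Without BLT1+/+KRasLA1 CS replicate 2 the response was 1.75 (adjusted p = 0.00254).

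The order of Timp1 levels began with the BLT1-/- and BLT1+/+ CS lungs of day 2, at 12.74 ± 0.14 and 12.46 ± 0.38, which overlapped. The BLT1-/-KRasLA1 and BLT1+/+KRasLA1 CS lungs of day 60 followed at 10.78 ± 0.45 and 10.70 ± 0.44, and overlapped each other. The 4 pools came last, within 8.84 to 9.24.

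Mmp9 (probe set 10478633, chromosome 2), the gelatinase of neutrophils and macrophages, was at 10.11, 10.62 and 9.82 in BLT1-/- CS lungs of day 2, against 10.66 in their PBS pool. BLT1+/+ lungs of that day had 9.78, 10.04 and 10.19 with CS, against 9.89 with PBS. The BLT1-/- pool was the highest array of all, and no response was called at day 2 (-0.19 ± 0.19, adjusted p = 0.628). At day 60 Mmp9 was at 9.66, 10.28 and 9.95 in BLT1-/-KRasLA1 CS lungs, against 8.82 in their pool. BLT1+/+KRasLA1 lungs had 10.12, 9.79 and 9.84 with CS, against 8.98 with PBS. Every CS lung of day 60 was above both pools, and Mmp9 rose by 1.04 ± 0.19, or 2.05-fold (adjusted p = 0.00679). The CS groups of all 4 genotypes lay within 9.91 to 10.18 as means and overlapped, and the 2 pools of day 60 were the lowest arrays. The day 60 call was lost without the BLT1-/-KRasLA1 pool (0.93, adjusted p = 0.121) and without the BLT1+/+KRasLA1 pool (1.15, adjusted p = 0.0518).

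Mmp2 (probe set 10573924, chromosome 8), the gelatinase of mesenchymal cells, was at 11.33, 11.55 and 11.74 in BLT1-/- CS lungs of day 2, against 11.52 in their pool. With BLT1+/+ it was at 11.60, 11.57 and 11.43 in CS lungs, against 11.73 in the pool. No response was called at day 2 (-0.09 ± 0.09, adjusted p = 0.646). In BLT1-/-KRasLA1 lungs of day 60 it was at 11.58, 11.64 and 11.74 with CS, against 10.80 with PBS. BLT1+/+KRasLA1 lungs had 11.86, 11.81 and 11.69 with CS, against 11.28 with PBS. All 6 CS lungs of day 60 were above both pools, and Mmp2 rose by 0.68 ± 0.09, or 1.60-fold (adjusted p = 0.00112). The 4 CS group means, from 11.53 to 11.78, overlapped with their neighbours and with the pools of day 2, and the 2 pools of day 60 were lowest. Without the BLT1-/-KRasLA1 pool the Mmp2 response of day 60 was 0.50 and not called (adjusted p = 0.0825), and without the BLT1+/+KRasLA1 pool it was 0.86 and called (adjusted p = 0.0123).

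**Figure D2:**
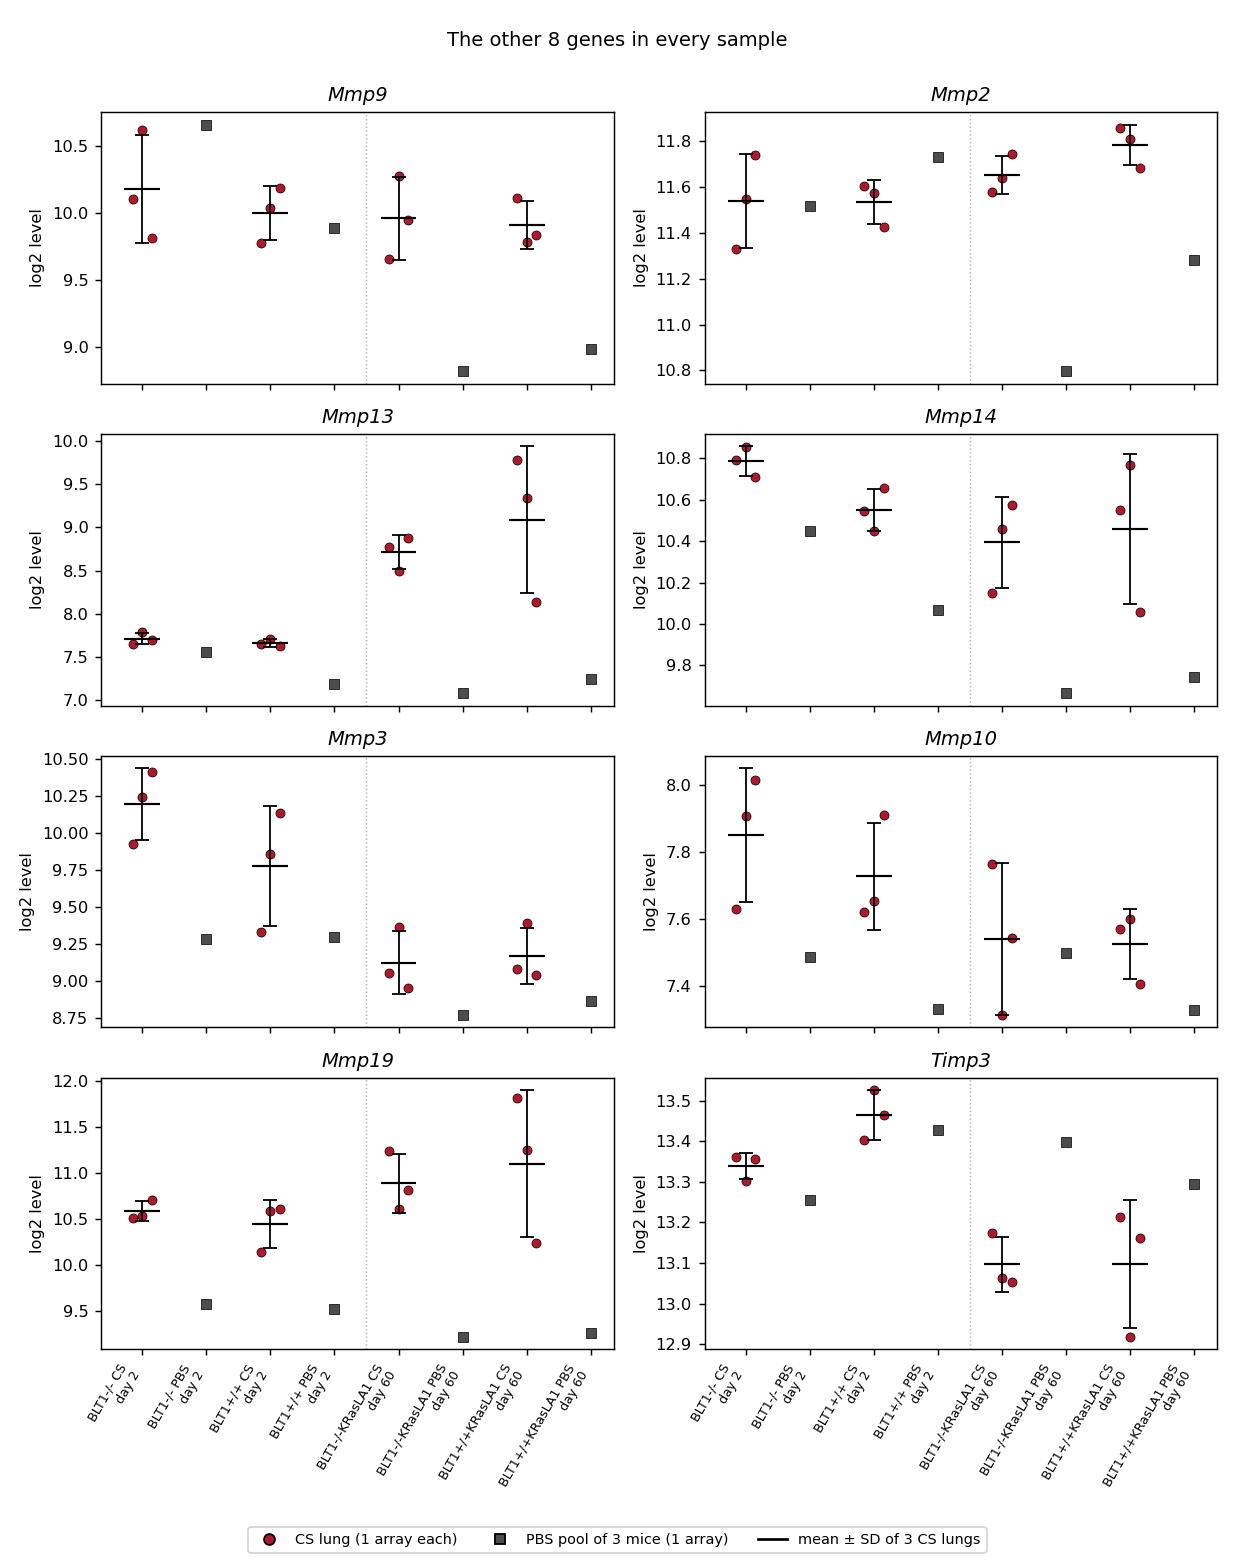
Log2 levels of the other 8 genes in every sample, by group, each panel with its own axis. Points are CS lungs, squares are PBS pools, and bars are the mean ± SD of 3 CS lungs. The pools of day 60 lie below the CS lungs of that day in Mmp9, Mmp2, Mmp13, Mmp14, Mmp3 and Mmp19, and above them in Timp3.

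Mmp13 (probe set 10583044, chromosome 9), a collagenase of fibrillar collagen and the immediate neighbour of Mmp12, stayed near its lowest levels at day 2. It was at 7.66, 7.79 and 7.70 in BLT1-/- CS lungs, against 7.56 in their pool. In BLT1+/+ lungs of day 2 it was at 7.65, 7.71 and 7.63 with CS, against 7.19 with PBS, and the mean response was not called (0.31 ± 0.29, adjusted p = 0.575). At day 60 it was at 8.77, 8.50 and 8.88 in BLT1-/-KRasLA1 CS lungs, against 7.08 in their pool. With BLT1+/+KRasLA1 it was at 9.78, 9.33 and 8.14 in CS lungs, against 7.24 in the pool. Mmp13 rose by 1.74 ± 0.29 at day 60, or 3.34-fold (adjusted p = 0.00331), with all 6 CS lungs above both pools. The BLT1+/+KRasLA1 and BLT1-/-KRasLA1 CS lungs were highest and overlapped, and the BLT1-/- and BLT1+/+ CS lungs of day 2 came next and overlapped. The day 60 call was lost without the BLT1-/-KRasLA1 pool (1.85, adjusted p = 0.171) and without the BLT1+/+KRasLA1 pool (1.63, adjusted p = 0.212).

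Mmp14 (probe set 10415052, chromosome 14) is anchored in the cell membrane, where it cuts collagen and activates the Mmp2 proenzyme. It was at 10.79, 10.85 and 10.71 in BLT1-/- CS lungs of day 2, against 10.45 in their pool. BLT1+/+ CS lungs of day 2 had 10.54, 10.45 and 10.65, against 10.07 in their pool. The mean response of day 2 was 0.41 ± 0.15 and missed the threshold (adjusted p = 0.0932), although all 6 CS lungs were above both pools. Its day 60 levels were 10.15, 10.46 and 10.57 in BLT1-/-KRasLA1 CS lungs, against 9.67 in their pool. The BLT1+/+KRasLA1 lungs had 10.55, 10.77 and 10.06 with CS, against 9.74 with PBS. Mmp14 rose by 0.72 ± 0.15 at day 60, or 1.65-fold (adjusted p = 0.0139). The BLT1-/- CS lungs of day 2 had the highest mean and did not overlap with the BLT1+/+ CS lungs, which overlapped with the BLT1+/+KRasLA1 CS lungs of day 60. The day 60 call was lost without the BLT1-/-KRasLA1 pool (0.71, adjusted p = 0.303) and without the BLT1+/+KRasLA1 pool (0.73, adjusted p = 0.281).

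Mmp19 (probe set 10367400, chromosome 10), a widely expressed metalloprotease of basement membrane proteins, was at 10.51, 10.53 and 10.71 in BLT1-/- CS lungs of day 2, against 9.58 in their pool. In BLT1+/+ lungs of day 2 it was at 10.15, 10.59 and 10.60 with CS, against 9.53 with PBS. It rose by 0.96 ± 0.29 at day 2, or 1.95-fold (adjusted p = 0.0456), and by 1.75 ± 0.29 at day 60, or 3.36-fold (adjusted p = 0.0036). In BLT1-/-KRasLA1 lungs of day 60 it was at 11.24, 10.61 and 10.81 with CS, against 9.22 with PBS. In BLT1+/+KRasLA1 lungs it was at 11.81, 11.25 and 10.24 with CS, against 9.27 with PBS. At both days all CS lungs were above both pools, and the 4 CS groups overlapped with their neighbours in order of level. The call of day 2 was lost without the BLT1-/- pool (0.92). With the replicate number as a block at that day, where the numbers were taken to pair the lungs, the adjusted p was 0.0525. At day 60 the call was lost without the BLT1-/-KRasLA1 pool (1.84, adjusted p = 0.164) and without the BLT1+/+KRasLA1 pool (1.66, adjusted p = 0.188).

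Mmp3 (probe set 10583071, chromosome 9), a stromelysin that cuts proteoglycans and activates other proenzymes, was the metalloprotease called at day 2 but not at day 60. It was at 9.93, 10.24 and 10.41 in BLT1-/- CS lungs of day 2, against 9.28 in their pool. BLT1+/+ lungs of day 2 had 9.33, 9.86 and 10.13 with CS, against 9.29 with PBS. All 6 CS lungs were above both pools, though BLT1+/+ CS replicate 1 was close to them, and Mmp3 rose by 0.70 ± 0.18, or 1.62-fold (adjusted p = 0.025). Levels of Mmp3 at day 60 were 9.05, 9.36 and 8.95 in BLT1-/-KRasLA1 CS lungs, against 8.77 in their pool. For BLT1+/+KRasLA1 lungs it was 9.08, 9.39 and 9.04 with CS, against 8.87 with PBS. The day 60 response was 0.33 ± 0.18 (adjusted p = 0.492), and the difference between the days was not called either (-0.37 ± 0.26, adjusted p = 0.63). Without the BLT1-/-KRasLA1 pool the day 60 response was 0.30 (adjusted p = 0.642), and without the BLT1+/+KRasLA1 pool 0.36 (adjusted p = 0.619). The day 2 call was lost without the BLT1-/- pool (0.48, adjusted p = 0.586), without the BLT1+/+ pool (0.91, adjusted p = 0.103) and without BLT1+/+ CS replicate 2 (adjusted p = 0.0527).

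Mmp10 (probe set 10583090, chromosome 9), the second stromelysin, lay between 7.31 and 8.01 on all arrays. Its response was 0.38 ± 0.13 at day 2 (adjusted p = 0.0825) and 0.12 ± 0.13 at day 60 (adjusted p = 0.788). The 6 CS lungs of day 2, from 7.62 to 8.01, were above both pools, at 7.49 and 7.33. With the replicate number as a block at day 2 the adjusted p of Mmp10 was 0.0477. At day 60 its CS lungs, from 7.31 to 7.77, overlapped with the pools, at 7.50 and 7.33. The response of that day was 0.20 without the BLT1-/-KRasLA1 pool (adjusted p = 0.849) and 0.04 without the BLT1+/+KRasLA1 pool (adjusted p = 0.977).

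Timp3 (probe set 10365482, chromosome 10), an inhibitor that binds to the matrix, had group means that spanned 0.37, the narrowest span of the 10 genes. At day 2 it was at 13.30 to 13.53 in the 6 CS lungs, against 13.26 and 13.43 in the pools, and the response was 0.06 ± 0.07 (adjusted p = 0.673). At day 60 it was at 12.92 to 13.21 in the 6 CS lungs, against 13.40 and 13.29 in the pools. All CS lungs of day 60 were below both pools, but the response of -0.25 ± 0.07 missed the threshold (adjusted p = 0.0676). It was -0.20 without the BLT1-/-KRasLA1 pool (adjusted p = 0.612) and -0.30 without the BLT1+/+KRasLA1 pool (adjusted p = 0.366).

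**Figure D3:**
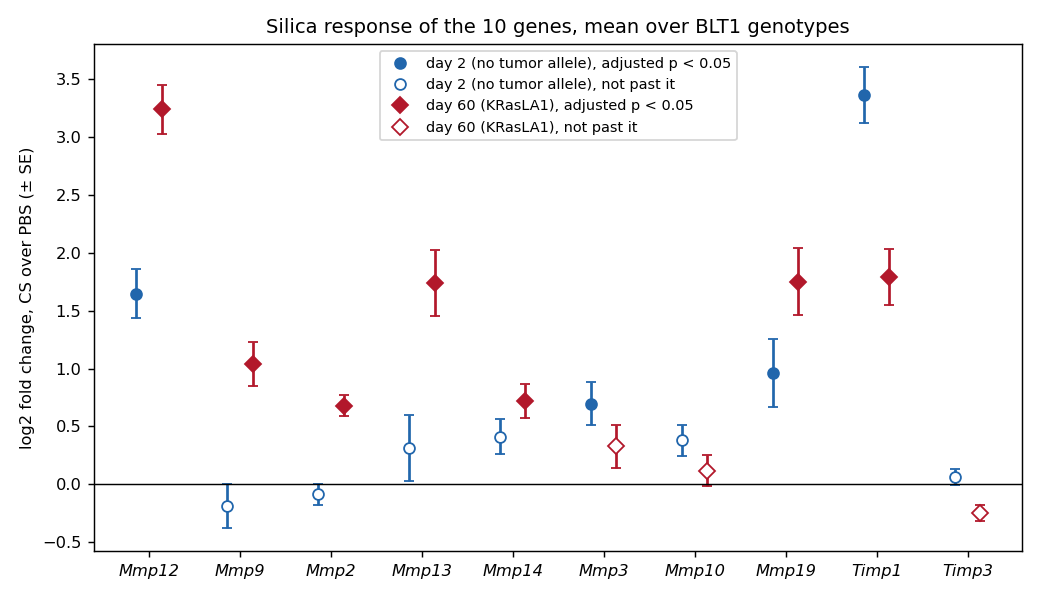
Silica response of the 10 genes as log2 fold change of CS over PBS, averaged over the BLT1 genotypes, with its standard error. Circles are day 2, diamonds are day 60 in KRasLA1 lungs, and filled symbols passed the threshold. Timp1 has its larger response at day 2 (3.36 against 1.79 at day 60) and Mmp12 at day 60 (3.24 against 1.65 at day 2).

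The response of day 60 in KRasLA1 lungs was set against that of day 2 as a difference of differences. Of the 10 genes 4 passed, 3 with the larger response at day 60 and 1 with the larger at day 2, against 2.35% of all genes in either direction, 1.7% larger and 0.657% smaller at day 60. The response of Mmp12 was larger at day 60 by 1.59 ± 0.30 (adjusted p = 0.0134). That of Timp1 was smaller at day 60, by -1.57 ± 0.34 (adjusted p = 0.0296). Those of Mmp9 and Mmp2 were larger at day 60 by 1.22 ± 0.27 (adjusted p = 0.0313) and 0.77 ± 0.13 (adjusted p = 0.0074). Mmp13 differed by 1.43 ± 0.40 and missed the threshold (adjusted p = 0.094). Without the BLT1-/-KRasLA1 pool, with the difference taken in BLT1+/+ genotypes alone, 0 of the 4 passed, at 1.03 for Mmp12, -1.58 for Timp1, 0.82 for Mmp9 and 0.70 for Mmp2 (adjusted p = 1, 0.538, 1 and 0.349). Without the BLT1+/+KRasLA1 pool, in BLT1-/- genotypes alone, 1 passed, Mmp12 at 2.15 (adjusted p = 0.0347), beside -1.56 for Timp1, 1.63 for Mmp9 and 0.84 for Mmp2 (adjusted p = 0.155, 0.0648 and 0.0558).

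For the 4 genes that passed, the arrays behind the difference were not the same ones. In CS lungs alone, Mmp12 was 2.46 ± 0.15 higher at day 60 than at day 2, or 5.49-fold (adjusted p = 6.67e-07), and Timp1 was lower, with a difference of -1.86 ± 0.17 (adjusted p = 8.45e-06). Mmp9 and Mmp2 did not pass in CS lungs, at -0.15 ± 0.13 (adjusted p = 0.471) and 0.18 ± 0.07 (adjusted p = 0.0572). Between the PBS pools it was the other way round. Mmp9 was lower in the pools of day 60 than in those of day 2, with a difference of -1.38 ± 0.23 (adjusted p = 0.027), as was Mmp2, with -0.58 ± 0.11 (adjusted p = 0.0479). Mmp12 and Timp1 did not pass there, at 0.87 ± 0.26 (adjusted p = 0.207) and -0.29 ± 0.30 (adjusted p = 0.857).

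Over the 10 genes, 5 passed between the CS lungs of day 60 and day 2, against 26.1% of all genes, and 2 passed between the pools, against 0.396%. The other 3 in CS lungs were Mmp13, higher at day 60 by 1.21 ± 0.20 (adjusted p = 0.000602), Mmp3, with a difference of -0.84 ± 0.13 (adjusted p = 0.000374), and Timp3, with -0.31 ± 0.05 (adjusted p = 0.000498). The comparisons between days share their arrays with the difference of responses. Without BLT1+/+KRasLA1 CS replicate 2, 6 passed between the CS lungs, Mmp14 being added at -0.32 (adjusted p = 0.0298). With a single pool left at day 60, limma called 0 of the 10 between the pools of either genotype, where Mmp9 was at -0.91 in BLT1+/+ and -1.85 in BLT1-/- genotypes and Mmp2 at -0.45 and -0.72 (adjusted p = 1, 0.0711, 1 and 0.153). The mean level of 12 neutrophil markers was 8.04 and 8.31 in the pools of day 60, against 10.07 and 9.67 in those of day 2. These markers were also lower in CS lungs of day 60, where Mmp9 did not pass. There 9 of the 12 passed as lower than at day 2 and 1 as higher, against 26.1% of all genes in either direction. The BLT1-/- pool of day 2, highest in Mmp9, had the higher marker level of that day's 2 pools. Replicates 2 and 3 of BLT1+/+ CS at day 2 had higher marker means than that pool, 10.15 and 10.43, with lower Mmp9, 10.04 and 10.19. Within each of the 4 CS groups, the 3 lungs had the same order in marker mean and in Mmp9. In BLT1-/-KRasLA1 CS replicates 1 to 3, marker means were 8.78, 9.36 and 9.05, with Mmp9 at 9.66, 10.28 and 9.95. The part of neutrophils in the Mmp9 difference was not tested. Leaving out BLT1+/+ CS replicate 2 of day 2 left 2 of the 4 differences of responses past the threshold and 0 of the 2 pool differences.

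Loss of BLT1 was next examined at each day. In CS lungs, BLT1-/- minus BLT1+/+, limma called 0 of the 10 genes at day 2 and 0 at day 60, against 0.0201% and 0.0401% of all genes. At an unadjusted p under 0.05 there was 1 gene at day 2 and 0 at day 60. That gene was Mmp3, at 0.42 ± 0.18 (unadjusted p = 0.0396, adjusted p = 0.538), with overlapping lungs. Mmp14 and Timp3 were the 2 of 10 genes whose lungs did not overlap at day 2, against 12.4% of all genes, with differences of 0.24 ± 0.15 and -0.12 ± 0.07 that were not called. At day 60, 0 of the 10 did not overlap, against 10.5% of all genes. For Mmp12 the 95% interval of the difference was -0.32 to 0.60 at day 2 and -0.41 to 0.52 at day 60. For Timp1 it was -0.24 to 0.80 at day 2 and -0.44 to 0.60 at day 60. The pools do not enter this comparison, and without BLT1+/+KRasLA1 CS replicate 2 limma also called 0 of the 10 at day 60. A p that misses the threshold does not show that levels were alike.

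The silica response itself did not differ between BLT1 genotypes past the threshold for any of the 10 genes at either day (limma, 0 and 0, against 0% of all genes at both days). At an unadjusted p under 0.05 there was 0 at day 2 and 1 at day 60, Mmp12, at 1.07 ± 0.43 (unadjusted p = 0.0264, adjusted p = 1). Its CS lungs differed by 0.05 ± 0.21 between the genotypes, and its pools were at 9.05 in BLT1-/-KRasLA1 and at 10.07 in BLT1+/+KRasLA1, a single array each. Without either pool this difference of responses cannot be formed. Taken by genotype, Mmp12 and Timp1 passed in all 4. In BLT1+/+KRasLA1 lungs, the call of Timp1 stood in 12 of 24 alternatives and that of Mmp12 in all 24. The response of Mmp12 was 1.62 in BLT1-/- and 1.67 in BLT1+/+ lungs of day 2, and 3.77 in BLT1-/-KRasLA1 and 2.70 in BLT1+/+KRasLA1 lungs of day 60. That of Timp1 was 3.50 and 3.23 at day 2, and 1.93 and 1.65 at day 60, in the same order of genotypes. In all, 2 of the 10 genes passed in BLT1-/- lungs (6.6% of all genes), 2 in BLT1+/+ lungs (1.16%), 3 in BLT1-/-KRasLA1 lungs (1.17%, the additional gene being Mmp2 at 0.86, adjusted p = 0.00691) and 2 in BLT1+/+KRasLA1 lungs (0.762%).

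Some lungs were the lowest of their group in most of the 10 genes, and the share over all genes is not given here. At day 2 these were BLT1+/+ CS replicate 1, lowest in 7, and BLT1-/- CS replicate 1, lowest in 6. At day 60 BLT1+/+KRasLA1 CS replicate 3 was lowest in 8, all but Mmp9 and Timp3. Without it, the response of BLT1+/+KRasLA1 lungs was 2.32 for Mmp13 (adjusted p = 7.7e-05) and 2.27 for Mmp19 (adjusted p = 0.000759), against 1.85 (adjusted p = 0.0561) and 1.84 (adjusted p = 0.0624) with it. The difference between days of Mmp13 then passed, at 1.66 (adjusted p = 0.000651). The lung was picked for its low values, so larger responses without it follow from the choice, and these calls add no support. The same lung had the lowest mean level of 9 recruited macrophage markers in its group, 10.02, against 10.59 and 10.39 in the other 2 lungs, and the highest of 8 heart muscle markers, 10.52, against 9.84 and 10.04. The part of these cells in its low values was not tested.

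Markers of macrophages were therefore set beside the proteases. Of 9 measured markers of recruited macrophages, 8 passed as higher with silica at day 60, against 3.35% of all genes. At day 2, 3 were higher and 1 lower, against 8.03% and 4.37% of all genes. Their mean level was 10.02 to 10.59 in the 6 CS lungs of day 60, against 9.26 and 9.45 in the pools, and 9.46 to 9.77 in the CS lungs of day 2, against 9.32 and 9.31 in the pools. Of 10 alveolar macrophage markers, 5 were higher at day 60 (3.35% of all genes) and 2 at day 2 (8.03%). Their mean was 11.38 to 11.64 in CS lungs of day 60, against 11.07 and 10.89 in the pools, and 10.58 to 10.71 in CS lungs of day 2, against 10.53 and 10.57 in the pools. No marker was at 0 on this scale, which does not show that each was detected. Eif2s3y was at 4.27 to 4.74 even on the 13 arrays that lacked its signal. In both lists CS lungs and pools did not overlap at either day, and the part of cell number in the Mmp12 response was not tested.

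**Figure D4:**
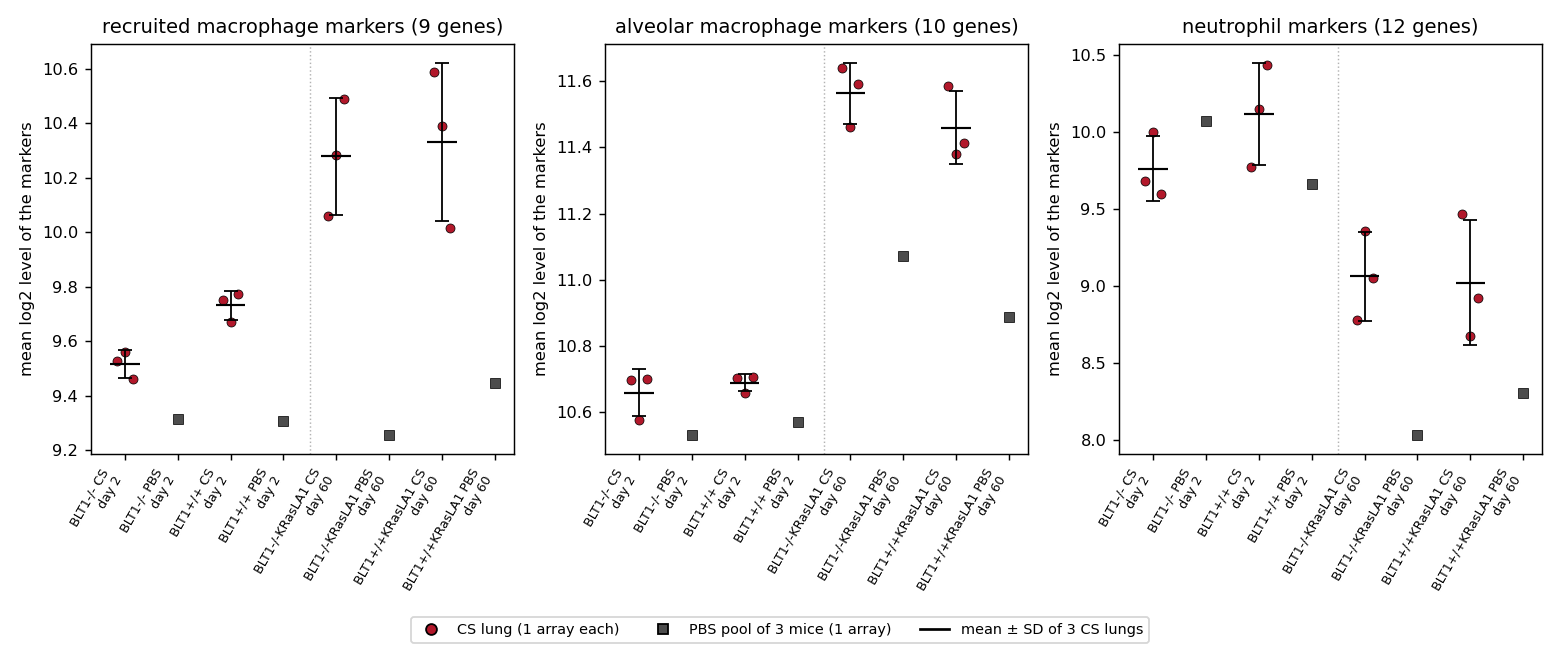
Mean log2 level of 9 recruited macrophage markers (left), 10 alveolar macrophage markers (middle) and 12 neutrophil markers (right) in every sample, by group. Points are CS lungs, squares are PBS pools, and bars are the mean ± SD of 3 CS lungs. Both macrophage panels are highest in the CS lungs of day 60, and the neutrophil panel is lowest in the pools of day 60.

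Of 12 neutrophil markers, 2 were higher with silica at day 2, against 8.03% of all genes, and 3 at day 60, against 3.35%. Their mean was 9.60 to 10.43 in CS lungs of day 2, against 10.07 and 9.67 in the pools, and 8.68 to 9.47 in CS lungs of day 60, against 8.04 and 8.31 in the pools. Of 10 fibroblast markers, 3 were higher and 4 lower at day 2 (8.03% and 4.37% of all genes), and 2 were higher and 1 lower at day 60 (3.35% and 0.677%). Their mean was 11.05 to 11.17 in CS lungs of day 2, against 11.16 and 11.17 in the pools, and 10.63 to 10.89 in CS lungs of day 60, against 10.681 and 10.999 in the pools. Cartilage can be carried along with the airways. Of its 8 markers 0 were higher at either day and 1 was lower at day 2, Chad at -1.28 ± 0.22 (adjusted p = 0.00277). Their mean was 7.78 to 8.07 in CS lungs of day 2, against 8.26 and 7.95 in the pools, and 7.79 to 8.13 in CS lungs of day 60, against 8.10 and 7.96 in the pools. Heart muscle can be carried along with the great vessels. Of its 8 markers, 5 were lower with silica at day 2, against 4.37% of all genes, and 0 were called at day 60. Their mean was 9.77 to 10.57 in CS lungs of day 2, against 10.92 and 11.01 in the pools, and 9.68 to 10.52 in CS lungs of day 60, against 10.39 and 10.75 in the pools. CS lungs and pools thus did not overlap in heart muscle markers at day 2, and the part of heart, cartilage, neutrophil and fibroblast content in the responses of the 10 genes was not tested.

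Along the cluster on chromosome 9, Mmp12 and Mmp3 passed at day 2 and Mmp13 and Mmp12 at day 60. That is 2 of 10 genes at each day, against 12.4% of all genes at day 2 and 4.02% at day 60. The genes between and beyond them stayed below the threshold at both days. These were Mmp10, the interstitial collagenase genes Mmp1b and Mmp1a, Mmp27, the enamel protease Mmp20, the epithelial protease Mmp7 and the neutrophil collagenase Mmp8. At day 2 their responses reached 0.38, in Mmp10, and at day 60 they reached 0.74 ± 0.35, in Mmp8 (adjusted p = 0.371), whose day 2 response was 0.37 ± 0.35 (adjusted p = 0.597). Mmp3 and Mmp10, which share the AP-1 letters with Mmp12 and Mmp13, were not called at day 60.

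**Figure D5:**
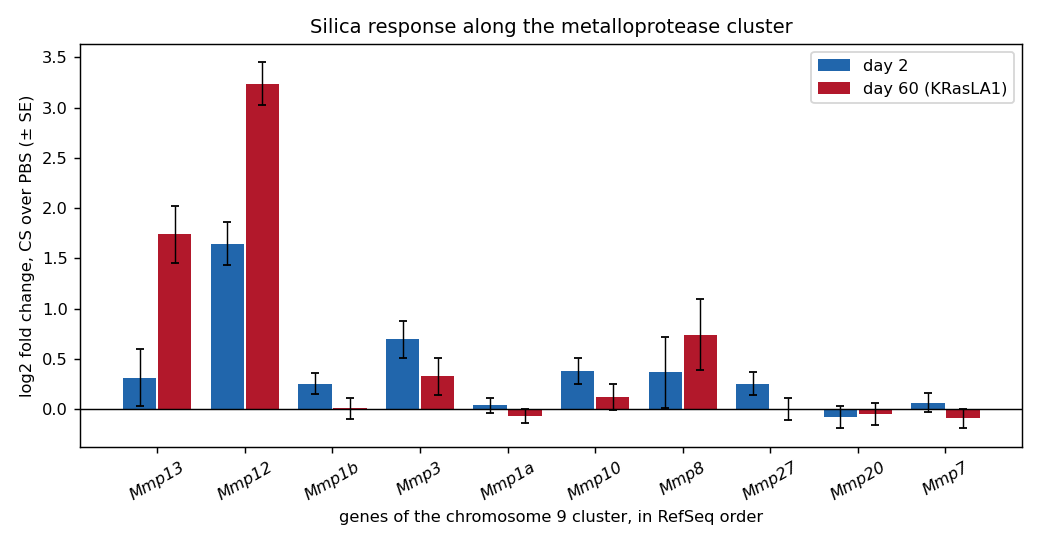
Silica response along the 10 metalloprotease genes of the chromosome 9 cluster, in RefSeq order, as log2 fold change of CS over PBS averaged over the BLT1 genotypes. Left bars are day 2, right bars are day 60 in KRasLA1 lungs, and whiskers are standard errors. Mmp12 stands highest at both days, and Mmp13 beside it reaches 1.74 at day 60.

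The AP-1 subunits, as possible readers of those letters, were measured as 8 genes. At day 2, 4 of the 8 were higher with silica, against 8.03% of all genes, namely Junb by 0.66 ± 0.12, Fosl2 by 0.47 ± 0.10, Fosl1 by 0.60 ± 0.14 and Atf3 by 0.66 ± 0.18 (adjusted p = 0.00297, 0.00678, 0.0125 and 0.0283). At day 60 it was 1 of 8, against 3.35% of all genes, Atf3, by 0.72 ± 0.18 (adjusted p = 0.0365). This call of Atf3 stood in 15 of 25 alternatives, with adjusted p up to 0.15, that value without the BLT1-/-KRasLA1 pool (0.47). RNA level of these factors says nothing of their binding.

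Few of the other metalloproteases passed the threshold. Of 14 other metalloproteases measured, Mmp28, an epithelial and macrophage protease, was lower at day 2, at -0.42 ± 0.09 (adjusted p = 0.00834), and Mmp25, a membrane-anchored protease of neutrophils, was higher at day 60 by 0.61 ± 0.11 (adjusted p = 0.00662). That is 1 of 14 at each day, against 12.4% of all genes at day 2 and 4.02% at day 60. The other 13 missed the threshold at each day, and the median response was 0.03 at day 2 and -0.03 at day 60, against -0.02 and -0.03 over all genes. Of 5 other inhibitors, Timp4 was higher at day 2 by 0.40 ± 0.12 (adjusted p = 0.0486) and Timp2, which also takes part in the activation of Mmp2, was lower at -0.26 ± 0.06 (adjusted p = 0.0105). In Timp4 the CS lungs and pools overlapped, and the call stood in 10 of 25 alternatives, with adjusted p up to 0.633, that value without the BLT1-/- pool (0.31). Of the 5 inhibitors, 1 was thus higher and 1 lower at day 2, against 8.03% and 4.37% of all genes. At day 60 limma called 0 of the 5, against 4.02% of all genes.

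Among related proteases, 4 of 17 ADAMTS genes were higher and 1 lower at day 2, against 8.03% and 4.37% of all genes. At day 60, 0 of the 17 were called, against 4.02% of all genes. Adamts4, an aggrecanase, had the largest response, 1.45 ± 0.19 (adjusted p = 0.000484), and a response of 0.17 ± 0.19 at day 60. Adamts9 rose by 0.74 ± 0.13, Adamts15 by 0.47 ± 0.11 and Adamts3 by 0.42 ± 0.09 at day 2 (adjusted p = 0.00256, 0.0141 and 0.0087). Of 9 ADAM genes, Adam12 was the 1 called at day 2, higher by 0.81 ± 0.20 (adjusted p = 0.02), against 12.4% of all genes. At day 60 Adam8, a leukocyte sheddase, was higher by 0.90 ± 0.19 and Adam17, which sheds tumor necrosis factor, by 0.39 ± 0.08 (adjusted p = 0.0171 and 0.0114), 2 of 9 against 4.02% of all genes.

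Of 7 measured neutrophil serine proteases and their inhibitors, 0 were called at day 2, against 12.4% of all genes. Slpi, an inhibitor of neutrophil elastase, was the 1 of 7 called at day 60, against 4.02% of all genes. It was higher by 0.98 ± 0.15 (adjusted p = 0.00201). Of 16 elastic fibre genes, 2 were higher and 5 lower at day 2, against 8.03% and 4.37% of all genes. The elastin gene Eln was not called by limma at either day. It was at -0.12 ± 0.23 at day 2 and 0.21 ± 0.23 at day 60 (adjusted p = 0.81 and 0.777). Fbln5 and Fbln1, which help to assemble elastic fibres, were at -0.44 ± 0.10 and -0.69 ± 0.17, Efemp1 at -0.43 ± 0.10 and Emilin1 at 0.40 ± 0.09 (adjusted p = 0.0101, 0.0169, 0.016 and 0.0126). Ltbp2 was the 1 of 16 called at day 60, against 4.02% of all genes, higher by 0.68 ± 0.13 (adjusted p = 0.00719).

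Most calls of these listed relatives, AP-1 subunits and elastic fibre genes were lost in the fits without 1 pool, which hold fewer arrays. Of 16 named calls of day 2, 1 remained without the BLT1-/- pool (Adamts9 at 0.79, adjusted p = 0.0178). Without the BLT1+/+ pool 2 remained, Adamts9 at 0.69 and Adamts4 at 1.40 (adjusted p = 0.0256 and 0.0488). Of 6 named calls of day 60, 0 remained without the BLT1-/-KRasLA1 pool and 1 without the BLT1+/+KRasLA1 pool, Atf3 at 0.98 (adjusted p = 0.0157).

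For the 7 of these genes whose group means spanned at least 1 log2 unit, the 3 nearest genes in pattern were found over the 16 arrays. Likeness is the root mean square difference between log2 levels, each gene first centred on its own mean, among 18237 genes. Gpnmb was nearest to Mmp12, at 0.58, followed by Awat1 at 0.63 and the cathepsin gene Ctsk at 0.64, where Mmp12 itself deviated from its mean by 1.55. Gpnmb, a glycoprotein of lipid-laden macrophages and one of the recruited macrophage markers, had responses of 1.22 at day 2 and 1.92 at day 60, and Ctsk of 1.45 and 1.85. Awat1 was listed at 0.13 and 2.43.

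Chl1 was nearest to Timp1, at 0.30, followed by the cytokine gene Il6 at 0.34 and the chemokine gene Ccl2 at 0.44, where Timp1 itself deviated by 1.41. Il6 had responses of 3.73 at day 2 and 1.41 at day 60, and Ccl2 of 3.02 and 2.21. The nearest genes to Mmp13 were Tm4sf19, Ptgir and Pdcd1lg2 (0.26 to 0.27), and those to Mmp19 were Ccl9, Inhba and C3ar1 (0.28 to 0.32). Those to Mmp3 were Thbs1, Steap1 and Srm (0.14 to 0.17), and those to Mmp14 Emilin2, Litaf and Clmp (0.14 to 0.15). Nearest to Mmp9 were Slc40a1, Emilin2 and Csf3r (0.25 to 0.26), of which Csf3r is one of the neutrophil markers. No other gene of the 10 was among the 3 nearest of any of the 7. The arrays share normalization and groups, so likeness is a description of these 16 arrays.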

How the data were processed

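Total lung RNA of 16 samples was labelled for Affymetrix whole-transcript arrays, per the labels' protocols. The deposited values are log2 expression levels, 1 per probe set. The authors used RMA and Partek 6.6, per the submitters' processing notes, with steps not given in the sources used here. Since RMA brings all arrays to a common distribution, it hides a change in total RNA per lung and compresses the changes of dim probe sets. Array medians of 8.25 to 8.34 and a smallest SD of 0.22 between any 2 arrays showed that no array was a copy of another.

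The platform annotation gave 1 gene symbol to 21789 of 35556 probe sets, several to 1621 and none to 12146. Probe sets with 1 symbol were kept, and the one with the highest mean over all arrays stood for its gene, which left 19938 genes. Each of the 10 genes described has a single such probe set, and its symbol equals that of RefSeq (GRCm38.p6).

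The 8 group means were estimated by limma's lmFit and moderated by eBayes with trend (limma 3.58.1 under R 4.3.3), and 13 contrasts were tested two-sided with Benjamini-Hochberg adjustment over all genes at 0.05. The 8 residual degrees of freedom come from CS lungs, and eBayes added 5.4 prior ones. PBS pools have no replicate and were assumed to vary like CS lungs. The number of arrays limits the precision, with a median standard error over genes of 0.098 for a mean response, 0.139 for a single genotype and 0.197 for an interaction. The fit was tested on simulated data in which pools varied like CS lungs, so the assumption about the pools was not tested. Errors are standard errors unless called SD.

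Same-numbered CS lungs of the BLT1 genotypes deviated together at day 2 (correlations of deviations over genes 0.43, 0.20 and 0.35) but not at day 60 (0.09, 0.01 and 0.06), so the numbers were taken to pair lungs at day 2 only, as a hint from the data. Alternatives were other scalings, probe set rules, a filter on the dimmest genes, variance models, array weights, single days, replicate blocks, and leaving out each CS lung or pool.

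The named genes are the 10 members, the 3 nearest in pattern of each whose group means span at least 1 log2 unit, and up to 4 genes with the smallest p among those past the threshold from each of 7 lists of proteases, inhibitors, elastic fibre genes and AP-1 subunits (76 of 84 members measured). Cell markers came from 11 lists (92 of 97 measured). The members and lists were chosen with earlier results of these data known.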

Additional observations from a re-analysis of the deposited data

Results flagged for a closer look

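A difference between the silica response of day 60 in KRasLA1 lungs and that of day 2, tested directly in limma, drew attention to 5 genes, of the 10 described and of the listed relatives. Each value is the response of day 60 minus that of day 2 on the log2 scale. Mmp12 differed by 1.59 (adjusted p = 0.0134), Mmp9 by 1.22 (adjusted p = 0.0313) and Mmp2 by 0.77 (adjusted p = 0.0074). Timp1 differed by -1.57 (adjusted p = 0.0296) and Adamts4, an aggrecanase outside the 10 genes, by -1.28 (adjusted p = 0.022). For Mmp12 and Timp1 the CS lungs of the days differed past the threshold and the pools did not, while for Mmp9 and Mmp2 the pools did and the CS lungs did not. Adamts4 was lower in CS lungs of day 60 than in those of day 2, with a difference of -1.32 (adjusted p = 1.5e-05), and differed by -0.04 between the pools. Without the BLT1-/-KRasLA1 pool, in BLT1+/+ genotypes alone, none of the 5 differences passed (adjusted p of at least 0.349), and without the BLT1+/+KRasLA1 pool that of Mmp12 did (2.15, adjusted p = 0.0347). Day, the tumor allele and, in part, the sex-linked signal of the pools go together, so which of them the differences follow cannot be told apart.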

How the results depend on the processing

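Mmp12 and Timp1 at day 2, and Mmp12 at day 60, passed the threshold under all 25 alternatives tried for the mean response, with ranges of 1.60 to 1.73, 3.23 to 3.50 and 2.70 to 3.77. No value of a named gene turned its direction while past the threshold. Of the 10 genes, the 4 called at day 2 became 2 without the BLT1-/- pool and 2 to 5 over the leave-one-out fits of CS lungs, with 2 without BLT1+/+ CS replicate 2. The 7 called at day 60 became 1 without the BLT1-/-KRasLA1 pool (Mmp12) and 2 without the BLT1+/+KRasLA1 pool (Mmp12 and Mmp2), in fits to the remaining arrays of that day. Mmp19 at day 2 kept its call in 11 of 25 alternatives, with adjusted p from 0.00398 to 0.109.

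With a replicate block at both days, the count was 4 in BLT1-/- lungs, 4 in BLT1+/+KRasLA1 lungs and 1 between the pools. The replicate block at day 2 only, chosen after seeing the data, ended the call of Mmp19 (adjusted p = 0.0525) and added Mmp10 (adjusted p = 0.0477) at day 2, and in BLT1-/- lungs it added Mmp3 (adjusted p = 0.00591). It moved no count by over 1.5 times, and ended no other call in the pairing.

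By genotype, the 2 called in BLT1+/+ lungs became 1 with robust eBayes and 1 to 2 leaving out a lung, and the 3 in BLT1-/-KRasLA1 lungs became 7 with array weights and 2 to 6 leaving out a lung. The 2 in BLT1+/+KRasLA1 lungs became 1 with cyclic loess, without the trend, with robust eBayes or with that day alone, 7 with array weights, 5 with the pool of the other genotype and 1 to 5 leaving out a lung. The 4 differences between days became 2 with robust eBayes, 2 to 5 leaving out a lung and, in an alternative chosen after seeing the data, 0 without the BLT1-/-KRasLA1 pool and 1 without the BLT1+/+KRasLA1 pool (Mmp12). The 2 between pools became 1 without the trend and 0 to 2 leaving out a lung, with 0 only without BLT1+/+ CS replicate 2 of day 2 among the lungs, and 0 without either pool of day 60. The 5 between CS lungs became 8 with array weights. The cause of these moves was not tested. Single pools limit each response of 1 genotype, and RMA compresses the changes of dim probe sets.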
